A study of Mus musculus with 3 samples.

Results

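The genes that cut proteins into peptides, load the peptides onto major histocompatibility complex (MHC) molecules and control both steps were followed in murine bone marrow derived macrophages (BMDMs) treated with purified lipoproteins of *Borrelia burgdorferi* (*Bb*LP). 32 genes were chosen by symbol, 24 of the class I path and 8 of the class II path, out of 32285 genes in the count tables. The data are 3 libraries of droplet-based single-cell RNA sequencing, in which every captured transcript is tagged for its cell and, by a unique molecular identifier (UMI), for itself. Ctrl cells received PBS and no lipoprotein and were collected at 4 h, LP1 cells received 1 µg/mL *Bb*LP for 1 h, and LP4 cells received the same dose for 4 h. The marrow of all groups came from female C3H/HeN mice aged 6 to 8 weeks, and no engineered allele is named for them. The study's methods give 3 mice whose BMDMs were treated separately for this experiment, and describe marrow pooled over mice for BMDM cultures in general. Cells of 3 wells were pooled for each library, so each group is 1 library, no spread between cultures was measured, and no test between groups was made. Intervals below are exact 95% intervals that cover counting error only.

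Class I molecules display peptides from proteins made inside the cell to CD8 T cells. The proteasome cuts these proteins, with the subunits *Psmb8*, *Psmb9* and *Psmb10* replacing constitutive ones in the immunoproteasome, the transporter TAP1/TAP2 moves the peptides into the endoplasmic reticulum, and tapasin, ERp57 and calreticulin help to load them onto a heavy chain bound to beta-2 microglobulin. Class II molecules display peptides of engulfed proteins to CD4 T cells, guided by the invariant chain CD74 and edited by H2-DM, and are made mainly by dendritic cells, B cells and macrophages exposed to interferon gamma. NLRC5 and CIITA are related proteins that act as the transactivators of class I and class II promoters, respectively.

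The 3 libraries held 6071, 5065 and 4670 kept cells and 35688939, 52475723 and 61402275 UMIs, in the order Ctrl, LP1 and LP4, and a kept cell had a median of 5133, 9343 and 11784 UMIs. A gene's level is its UMIs over all kept cells of 1 library per 1000000 UMIs of every gene (CPM). Macrophage markers summed to 11914, 12084 and 10751 CPM, none of the 11 at 0, against 25.6, 31.2 and 20.7 CPM for 16 dendritic cell markers and 4.62, 3.75 and 2.72 CPM for 6 B cell markers. Ctrl and LP1 shared 10 barcode sequences, Ctrl and LP4 shared 7, and LP1 and LP4 shared 4. LP1 and LP4 were both set against the same Ctrl library, so their ratios are not independent. Ctrl was collected at 4 h, so LP1 has no control collected at 1 h. In the LP1 to Ctrl ratios, treatment and collection time cannot be told apart. The reference is the C57BL/6 genome, whose MHC haplotype is not that of C3H mice. Counts of polymorphic genes and of near-identical copies (*H2-Q6* and *H2-Q7*, *H2-T22* and other *H2-T* genes) are therefore uncertain in level. Their ratios are uncertain as well if reads of 1 gene were assigned to another, which was not tested.

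Of the 32 genes, 19 lie on chromosome 17 between 33915899 and 37274484 on GRCm38 (mm10), 14 of class I and 5 of class II. The start regions of 25 genes, 250 bases before and 50 after the start, were in a RefSeq promoter table of GRCm38.p6; there was no entry for *Tapbpl*, *H2-T24*, *Tap2*, *H2-Ab1*, *Cd74*, *Nlrc5* and *Ciita*. The stretches from -200 to -21 bases of the start of 4 class I genes and 2 class II genes are given as examples of the letters found in the promoters of each path. Capitals mark the matches to the motifs searched, on either strand.
H2-K1 (chr17:34000354-34000533, - strand): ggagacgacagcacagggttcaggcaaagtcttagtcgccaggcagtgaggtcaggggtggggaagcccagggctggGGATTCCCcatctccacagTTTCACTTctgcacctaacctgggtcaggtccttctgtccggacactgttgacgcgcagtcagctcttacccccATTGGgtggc
H2-D1 (chr17:35262894-35263073, + strand): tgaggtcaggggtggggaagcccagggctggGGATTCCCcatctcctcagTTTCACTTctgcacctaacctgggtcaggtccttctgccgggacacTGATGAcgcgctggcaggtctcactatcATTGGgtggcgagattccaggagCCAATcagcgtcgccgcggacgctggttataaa
H2-T22 (chr17:36042763-36042942, - strand): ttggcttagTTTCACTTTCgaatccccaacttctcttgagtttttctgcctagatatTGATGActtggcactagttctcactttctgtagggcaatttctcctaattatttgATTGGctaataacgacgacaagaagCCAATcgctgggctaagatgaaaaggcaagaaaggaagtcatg
B2m (chr2:122147487-122147666, + strand): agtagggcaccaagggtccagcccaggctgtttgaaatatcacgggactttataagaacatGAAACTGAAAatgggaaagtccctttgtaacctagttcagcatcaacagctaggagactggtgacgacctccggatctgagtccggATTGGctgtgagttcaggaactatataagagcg
H2-Aa (chr17:34287844-34288023, - strand): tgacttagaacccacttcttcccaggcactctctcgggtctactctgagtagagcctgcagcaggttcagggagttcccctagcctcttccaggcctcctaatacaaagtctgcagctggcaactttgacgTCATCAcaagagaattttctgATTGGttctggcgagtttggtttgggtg
H2-Eb1 (chr17:34305667-34305846, + strand): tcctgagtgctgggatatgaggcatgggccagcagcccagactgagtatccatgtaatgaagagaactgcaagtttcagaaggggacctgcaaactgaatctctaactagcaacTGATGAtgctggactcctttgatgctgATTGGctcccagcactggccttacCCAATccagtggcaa
The genome shown is that of C57BL/6 mice, not of the C3H cells. 6 motifs were searched on both strands. The interferon-stimulated response element (ISRE) core, TTTC, 2 bases of any kind and TTTC, was in 3.44% of all 32851 promoters, the class I interferon consensus core TTTCACTT in 1.6%, the kappa B letters GGATTCCC in 1.02%, the gamma-activated site TTCNNNGAA in 8.3%, the X2 letters TGATGA in 12.4% and the Y box CCAAT, the letters bound by NF-Y, in 37.4%. TTTCACTT can overlap the ISRE core, as it does in *H2-T22*, where both begin at -191.

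The interferon letters were counted in the promoters of each path. The ISRE core was in 5 of the 20 class I promoters matched (*H2-T22*, *H2-T23*, *B2m*, *Erap1* and *Psme1*) and in 0 of the 5 class II promoters. TTTCACTT was in 8 of the 20 (*H2-K1*, *H2-D1*, *H2-Q4*, *H2-Q6*, *H2-Q7*, *H2-T22*, *H2-M3* and *Erap1*) and in 0 of the 5, and TTCNNNGAA in 2 of the 20 (*H2-M3* and *Psmb8*) and in 0 of the 5. With motifs this rare among all promoters, 0 of 5 is near the background. The 5 class II promoters are too few to show or exclude a difference between the paths. *H2-K1* and *H2-D1* share GGATTCCC followed by TTTCACTT, at -123 and -104 in the second *H2-K1* start and at -169 and -150 in *H2-D1*. The X2 letters were in 8 of the 20 class I and 3 of the 5 class II promoters (*H2-Aa*, *H2-Eb1* and *H2-DMb1*), and the Y box in 15 of the 20 and 4 of the 5. TTTCACTT was searched as a core of class I promoters, so its count there is not an independent result. The promoters of *H2-D1*, *H2-Q6* and *H2-Q7* hold the kappa B, TTTCACTT, X2 and Y box letters in the same order at near-equal spacing. *H2-Q4* has this layout without the kappa B letters. The matches of such similar promoters cannot be taken as separate. These are matches of letters and not measured binding.

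The class I genes chosen were, in sum, higher in LP4 than in Ctrl, and the 8 class II genes chosen were not. Some other genes of the class II path were higher (given at the end). Summed over its 24 genes, class I took 3189 CPM in Ctrl, 3737 CPM in LP1 and, in LP4, 5468 CPM, which is 0.319%, 0.374% and 0.547% of all UMIs. The LP4 sum was 1.71-fold that of Ctrl (log2 ratio 0.78, interval 0.77 to 0.79), and the LP1 sum was 1.17-fold (0.23, interval 0.22 to 0.24). The 10 heavy and light chains of class I alone were 2.70-fold in LP4 (1.43, interval 1.41 to 1.45), and its 8 transport and loading genes 1.20-fold. Summed over its 8 genes, class II took 404.9 CPM, 455.2 CPM and 366.6 CPM, an LP4 to Ctrl log2 ratio of -0.14 (interval -0.17 to -0.11). Its 6 chains and chaperones took 189.2, 189.4 and 185.5 CPM (-0.03, interval -0.07 to 0.02). Most of the rest of the class II sum was *Ifi30*, at 214, 265 and 180 CPM. Genes with a mean of at least 5 CPM over the 3 libraries were kept for counts, 9057 in all, among them 22 of class I and 7 of class II. *H2-Q6*, *Tapbpl* and *Ciita* were under this minimum and are given by their values.

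Of the 22 class I genes, 10 were at least 2-fold higher in LP4 than in Ctrl and 0 at least 2-fold lower, with a median log2 ratio of 0.94. Over all genes tested, 9.58% were at least 2-fold higher and 10.2% at least 2-fold lower, with a median of -0.09. Of the 7 class II genes, 0 passed 2-fold in either direction, and their median was -0.10. With TMM or median-of-ratios scaling the median of all genes moved by 0.17 or 0.21 on the log2 scale, the class I count became 12 with either, and the median of class II turned positive (0.06 and 0.10). The share of 2-fold differences that were higher in LP4 was 48.4% with CPM, 62.2% with TMM and 64.99% with median-of-ratios scaling. Relative to the median of all genes, which these scalings shift by the same amount, the class I median was 1.03 and the class II median -0.02.

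In LP1, 1 of the 22 class I genes (*H2-D1*) was at least 2-fold higher than Ctrl and 0 were at least 2-fold lower, against 0.729% and 0.475% of all genes tested; with TMM or median-of-ratios scaling, 3 were, *H2-T22* and *H2-M3* being added. The counting interval of the LP1 ratio lay above 0 for 10 of the 22 class I genes and below 0 for 8, against 30.3% and 35.2% of all genes. For class II it lay above 0 for 3 of 7 (*H2-Aa*, *H2-Eb1* and *Ifi30*) and below 0 for 1 (*Cd74*). The intervals of *H2-Aa*, *H2-Eb1* and *Cd74* leave out that many of their UMIs came from few cells, as given below. This holds as well for the LP4 intervals of these genes and of *H2-Ab1*. From LP1 to LP4, 7 class I genes were at least 2-fold higher and 0 lower, against 7.8% and 8.09% of all genes, and 0 of the class II genes passed 2-fold.

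**Figure D1:**
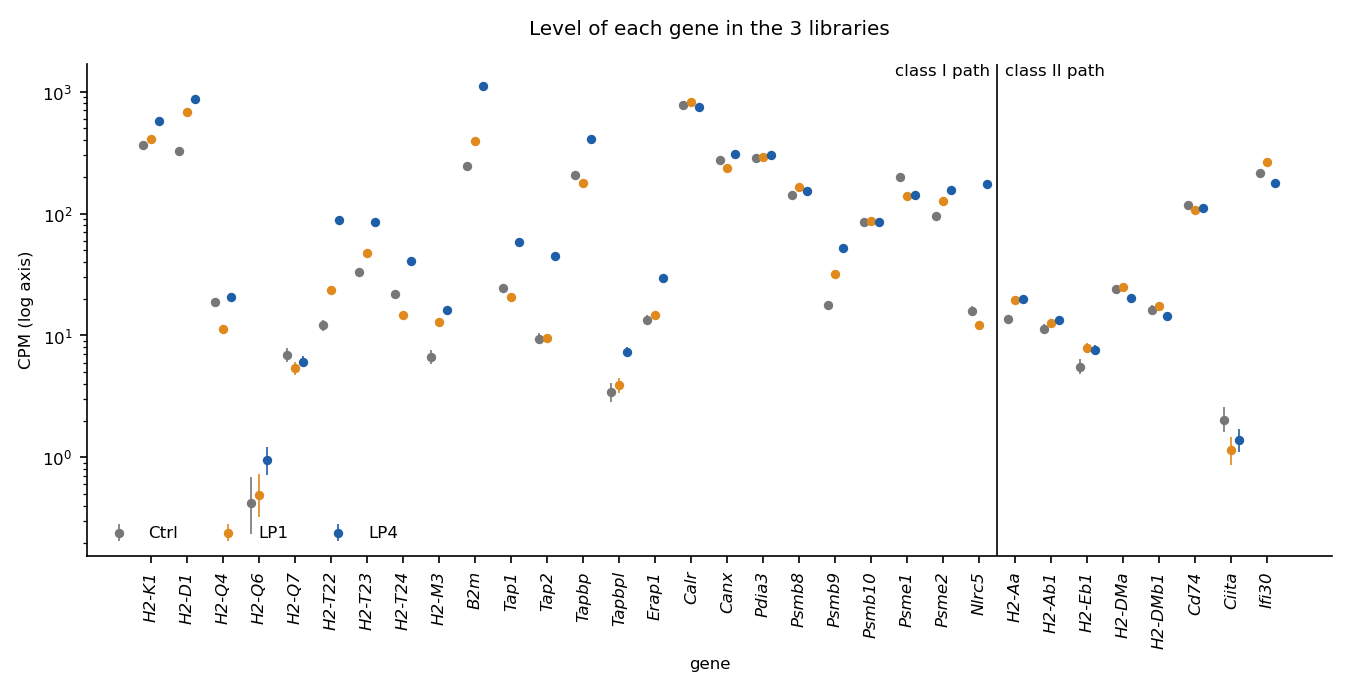
Level of each of the 32 genes in CPM (log axis) in Ctrl (grey), LP1 (orange) and LP4 (blue), with bars for exact Poisson 95% intervals, many of them smaller than the points. *B2m* stood at 247, 395 and 1102 CPM, while *Cd74* stood at 118, 107 and 110 CPM.

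*Nlrc5*, the class I transactivator (chromosome 8, 94434356 to 94527272), had the highest LP4 to Ctrl ratio of the 32 genes. It stood at 15.9 CPM in Ctrl (569 UMIs), 12.1 CPM in LP1 (636 UMIs) and 174 CPM in LP4 (10700 UMIs). LP4 was far above both other libraries, at 10.9-fold Ctrl (log2 ratio 3.45, interval 3.33 to 3.57), and LP1 was below Ctrl (-0.40, interval -0.56 to -0.23).

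Among the classical chains, *B2m*, the light chain shared by all class I molecules (chromosome 2, 122147686 to 122153083), stood at 247 CPM in Ctrl, 395 CPM in LP1 and 1102 CPM in LP4. It was higher at each time, with log2 ratios to Ctrl of 0.68 (interval 0.64 to 0.71) in LP1 and 2.16 (2.12 to 2.19) in LP4. *H2-D1*, a classical heavy chain (chromosome 17, 35262730 to 35267499), stood at 323 CPM, 679 CPM and 866 CPM. Most of its difference from Ctrl was also seen in LP1, at a log2 ratio of 1.07 (1.04 to 1.10), against 1.42 (1.39 to 1.45) in LP4. *H2-K1*, the other classical heavy chain, stood at 368 CPM, 410.2 CPM and 571 CPM, with log2 ratios of 0.16 in LP1 and 0.63 (0.61 to 0.66) in LP4. *H2-K1* was thus under 2-fold in both, and its start region holds the same GGATTCCC and TTTCACTT pair as that of *H2-D1*. The exact X2 letters TGATGA were found in the *H2-D1* promoter and not in that of *H2-K1*. Between the same letters gacac and cgcgc, the *H2-K1* stretch reads tgttga, so the search does not show that *H2-K1* lacks the element. Whether any of these letters bear on the ratios was not tested.

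The nonclassical heavy chains were unlike each other. *H2-T22*, a ligand of some gamma delta T cells, stood at 12.1 CPM in Ctrl, 23.4 CPM in LP1 and 89.2 CPM in LP4, and its LP4 ratio (log2 2.89, interval 2.74 to 3.03) was the second highest of the 32 genes. *H2-T23*, which encodes Qa-1 and presents peptides to NK cell receptors, stood at 33.3 CPM, 47.2 CPM and 85.6 CPM (LP4 to Ctrl 1.36). *H2-M3*, which presents N-formylated bacterial peptides, stood at 6.64 CPM, 12.8 CPM and 16.1 CPM (1.28). These 3 were in ascending order from Ctrl to LP1 to LP4. *H2-T24* (21.8, 14.8 and 41.1 CPM) and *H2-Q4* (18.7, 11.3 and 20.9 CPM) were lower in LP1 than in Ctrl, with log2 ratios of -0.55 and -0.73. In LP4, *H2-T24* was higher, at 0.92 (0.80 to 1.04), and *H2-Q4* was barely above Ctrl, at 0.15 (0.02 to 0.29). Of the 6 clusters described below, 1 had an *H2-Q4* interval above 0 in LP4 and 0 had one below. *H2-Q7* stood at 6.92, 5.37 and 6.07 CPM, with an LP4 ratio of -0.19 (interval -0.42 to 0.05) that turns to 0.02 under median-of-ratios scaling. *H2-Q6* had 15, 26 and 58 UMIs, so that its LP4 log2 ratio of 1.17 has an interval from 0.33 to 2.09.

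The transporter and its partner tapasin were higher than Ctrl in LP4 and not in LP1. *Tap1* (chromosome 17, 34187553 to 34197225) stood at 24.3 CPM in Ctrl, 20.6 CPM in LP1 and 58.7 CPM in LP4, and *Tap2* at 9.44, 9.45 and 44.9 CPM. Their LP1 log2 ratios were -0.24 (-0.37 to -0.10) and 0.00 (-0.20 to 0.21), and their LP4 ratios 1.27 (1.17 to 1.38) and 2.25 (2.08 to 2.42). *Tapbp*, which encodes tapasin, stood at 209 CPM, 178 CPM and 409 CPM, just under 2-fold in LP4 at 0.97 (0.93 to 1.01). *Erap1*, the aminopeptidase that trims peptides in the endoplasmic reticulum, stood at 13.5, 14.8 and 29.4 CPM (LP4 to Ctrl 1.12, interval 0.98 to 1.27). *Tapbpl*, which encodes the tapasin-related peptide editor, was low throughout at 3.45, 3.91 and 7.34 CPM (1.09, interval 0.80 to 1.39).

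The general chaperones of the loading complex, which also fold other proteins, differed little. *Calr* stood at 775 CPM in Ctrl, 820.3 CPM in LP1 and 748 CPM in LP4, *Canx* at 275, 238 and 309 CPM, and *Pdia3*, which encodes ERp57, at 285, 289 and 300.3 CPM. Their LP4 to Ctrl log2 ratios were -0.05, 0.17 and 0.08, and the sign of *Calr* turns under TMM (0.12) and median-of-ratios scaling (0.16).

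The immunoproteasome subunits were unequal. *Psmb9* (chromosome 17, 34181987 to 34187764) stood at 17.8 CPM in Ctrl, 32.2 CPM in LP1 and 52.3 CPM in LP4, with log2 ratios to Ctrl of 0.85 (0.72 to 0.99) and 1.55 (1.43 to 1.68). *Psmb8*, the chymotrypsin-like subunit, stood at 141 CPM, 165 CPM and 154 CPM, and *Psmb10*, the trypsin-like subunit, at 85.5, 87.0 and 85.8 CPM. Their LP4 ratios were 0.12 and 0.01, and that of *Psmb10* turns negative (-0.02) in CPM without mitochondrial and ribosomal protein genes. *Psmb9* thus differed from Ctrl by far more than the other 2. Within a library, *Psmb9* had 0.0645 UMIs for each UMI of *Psmb6*, the constitutive subunit it replaces, in Ctrl, 0.114 in LP1 and 0.171 in LP4. *Psmb8* had 1.28, 1.08 and 1.40 UMIs for each UMI of *Psmb5*, and *Psmb10* had 1.65, 1.31 and 1.09 for each UMI of *Psmb7*.

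The start regions of *Tap1* and *Psmb9* lie on opposite strands and share 275 bases of their windows. In LP1, *Psmb9* was above Ctrl and *Tap1* below it, and in LP4 both were above it. Of the 2 subunits of PA28, the activator that opens the proteasome, *Psme1* stood at 200.1 CPM in Ctrl, 139 CPM in LP1 and 141 CPM in LP4. It was the lowest class I gene relative to Ctrl in LP4 (log2 ratio -0.50, interval -0.55 to -0.46). *Psme2* stood at 95.4 CPM, 127 CPM and 155 CPM (0.70, interval 0.64 to 0.76), so the 2 subunits were on opposite sides of Ctrl.

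**Figure D2:**
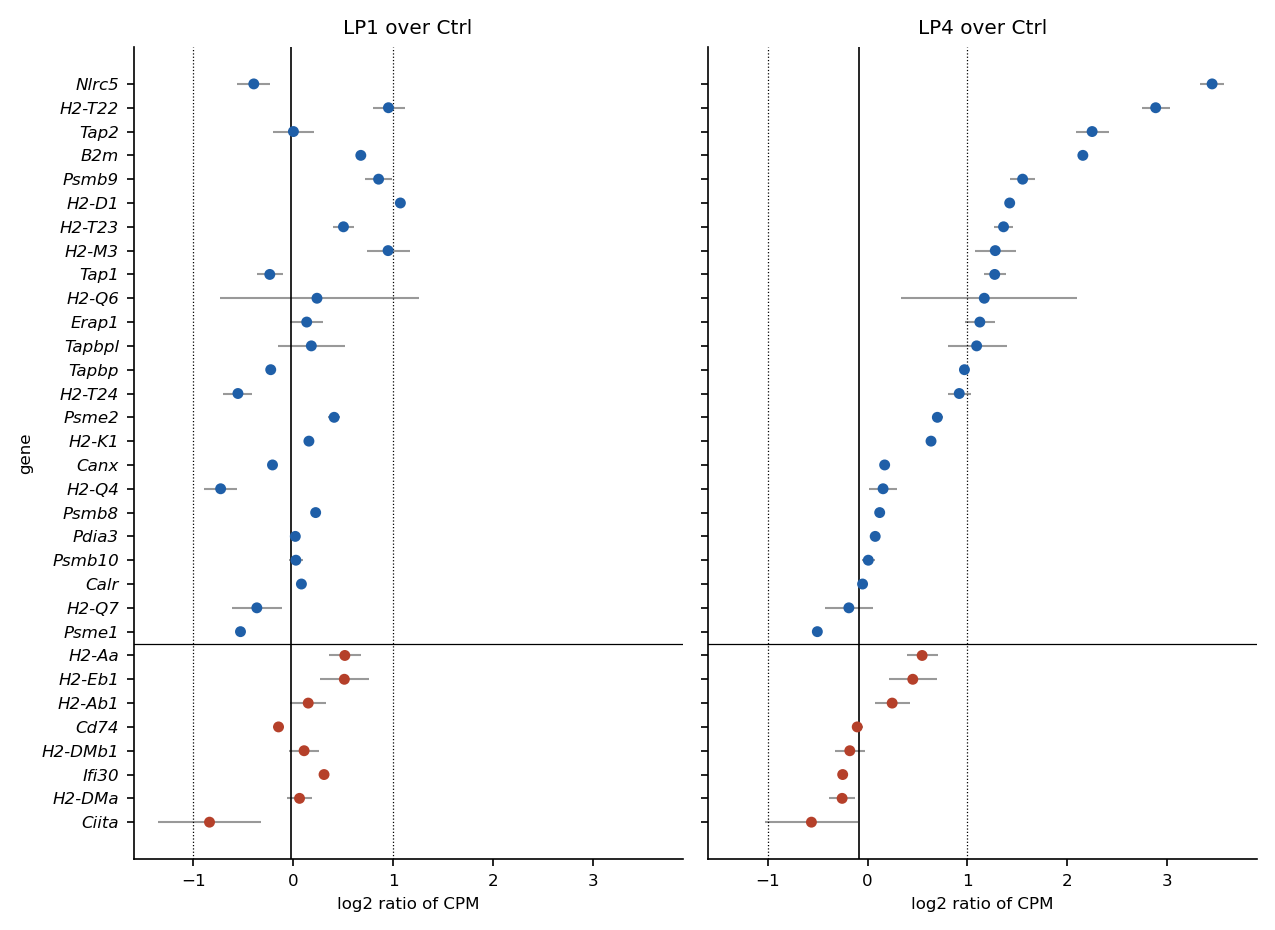
Log2 ratio of CPM to Ctrl in LP1 (left) and LP4 (right) for each class I gene (blue, ordered by the LP4 ratio) and class II gene (red), with bars for exact 95% counting intervals; the solid line is the median of all genes tested and the dotted lines mark 2-fold. In LP4 the class I genes spread from -0.50 (*Psme1*) to 3.45 (*Nlrc5*), while the class II genes lie between -0.56 (*Ciita*) and 0.55 (*H2-Aa*).

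The class II chains were low in all 3 libraries. *H2-Aa*, the alpha chain of I-A (chromosome 17, 34282744 to 34287823), stood at 13.6 CPM in Ctrl, 19.4 CPM in LP1 and 19.8 CPM in LP4, from 485, 1020 and 1218 UMIs. *H2-Ab1*, the beta chain of I-A, stood at 11.3, 12.6 and 13.4 CPM, and *H2-Eb1*, the beta chain of I-E, at 5.55, 7.91 and 7.59 CPM. All 3 were somewhat higher in LP4, with log2 ratios of 0.55 (0.39 to 0.70), 0.25 (0.07 to 0.42) and 0.45 (0.21 to 0.70). Without the cells rich in class II chains described below, these were 0.23 (0.02 to 0.43), 0.17 (-0.06 to 0.40) and -0.03 (-0.43 to 0.37). *Cd74*, the invariant chain (chromosome 18, 60803848 to 60812652), stood at 118 CPM, 107 CPM and 110.2 CPM, with a ratio of -0.10 (-0.16 to -0.05) that turns to 0.06 with TMM. *H2-DMa* stood at 24.01, 25.1 and 20.1 CPM and *H2-DMb1* at 16.3, 17.6 and 14.4 CPM, with LP4 ratios of -0.26 and -0.18, the latter 0.03 under median-of-ratios scaling. *Ciita*, the class II transactivator (chromosome 16, 10480059 to 10528418), had 73, 60 and 85 UMIs, or 2.05, 1.14 and 1.38 CPM. Its LP4 to Ctrl log2 ratio was -0.56 (-1.03 to -0.09), beside 3.45 for *Nlrc5*. *Ifi30*, the lysosomal thiol reductase, stood at 214 CPM, 265 CPM and 180 CPM, above Ctrl in LP1 (0.31) and below it in LP4 (-0.25, interval -0.29 to -0.21).

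A UMI of the class II chains was seen in few cells, and at the depths used here a cell without one may still express them. Each cell was thinned to 2000 UMIs, and cells below this depth were left out (122, 13 and 45 cells of Ctrl, LP1 and LP4). A UMI of any of the 3 chains was then seen in 2.64% of Ctrl cells (exact binomial interval 2.25 to 3.08), 2.43% of LP1 cells (2.03 to 2.90) and 2.44% of LP4 cells (2.02 to 2.93), against 3.87%, 4.70% and 5.93% without thinning. In neutrophil-like cells, which should lack these chains, it was seen in 0 of 21, 1 of 20 and 0 of 28 cells (median depth 3947, 6220 and 9262 UMIs, against 5194, 9353 and 11838 in all cells). A count of 0 allows up to 14.3% and 10.7% there (3 counts of the total), so the reference is too small to set the background, and cells with a lone UMI cannot be told apart from free RNA. The UMIs were concentrated: the 1% of cells with most class II chain UMIs held 73.5%, 81.9% and 80.5% of them in the 3 libraries. This share depends on the number of UMIs, 412, 441 and 389 for the chains, so it is set beside class I genes with like numbers. The 1% of cells with most *H2-T23* UMIs held 18.2% of 418 UMIs in Ctrl and 17.1% of 498 in LP1, and for *H2-T24* in LP4 it was 18.2% of 373. For *Cd74* the 1% of cells held 44.8% of 1670 UMIs in Ctrl, 56.1% of 1137 in LP1 and 55.4% of 1145 in LP4.

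Cells with at least 5 chain UMIs of 2000, a limit set for this description, numbered 26 of 5949 in Ctrl (0.437%, interval 0.286 to 0.640), 26 of 5052 in LP1 (0.515%, 0.336 to 0.753) and 25 of 4625 in LP4 (0.541%, 0.350 to 0.797). There were 9, 5 and 6 cells just at the limit and 4, 4 and 6 cells 1 UMI below it. These cells held 37.3%, 56.8% and 49.8% of the *H2-Aa* UMIs, which the limit itself favours. *Cd74*, which the limit did not use, stood at 7008, 8373 and 6924 CPM in them and at 92.9, 71.0 and 79.6 CPM in the rest. *Ciita* stood at 83.3 CPM (11 UMIs), 57.2 CPM (13 UMIs) and 95 CPM (26 UMIs), against 1.72, 0.900 and 0.966 CPM in the rest. *H2-DMa* stood at 242, 326 and 201 CPM, against 23.2, 23.8 and 19.3 CPM. *B2m*, of class I, stood at 273, 585 and 1283 CPM against 247, 394 and 1101 CPM, a far smaller gap than that of the class II genes.

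Macrophage markers summed to 13402, 16852 and 14181 CPM in these cells, against 11899, 12062 and 10735 CPM in the rest. The 16 dendritic cell markers summed to 235, 678 and 428 CPM, against 24.8, 28.3 and 18.9 CPM, with 9, 5 and 6 of the 16 at 0. A few cells held much of these sums: of 154 such UMIs in LP1, 63 were of *Ccl22* in 3 cells and 21 of *Ccr7* in 1, and of 117 in LP4, 31 were of *Ccl17*, 29 of *Ccl22* and 19 of *Ccr7*, each in 1 cell. *Ccr7*, the receptor of migrating dendritic cells, was seen in 2, 1 and 1 of these cells, *Flt3* in 0, 2 and 2, and *Irf4* in 8, 13 and 6. The 6 B cell markers had 0, 1 and 0 UMIs in them. The part of dendritic cells in the class II values was not tested. Without these cells, *H2-Aa* stood at 8.55, 8.44 and 10.0 CPM, and its log2 ratios to Ctrl were -0.02 (-0.23 to 0.20) in LP1 and 0.23 (0.02 to 0.43) in LP4, against 0.52 and 0.55 with them. The LP1 ratio of *H2-Aa* was thus near 0 once 26 cells of each library were left out. Those cells were picked by their UMIs of the 3 chains, so the fall in the chain ratios is partly set by that choice. *H2-Eb1* likewise went from 0.51 to -0.34 in LP1, and the *Cd74* ratio from -0.15 to -0.39.

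Class I UMIs were spread over nearly all cells. Summed over the 24 genes and thinned to 2000 UMIs, the median cell held 6 class I UMIs in Ctrl (5th to 95th percentile 2 to 12), 7 in LP1 (3 to 13) and 11 in LP4 (5 to 18). The whole distribution lay higher in LP4, and the ranges of the 3 libraries overlapped. *B2m* was seen in 40.1% of Ctrl cells (38.8 to 41.3), 54.3% of LP1 cells (52.9 to 55.7) and 88.0% of LP4 cells (87.0 to 88.9), against 72.6%, 95.2% and 99.6% without thinning. *Nlrc5* was seen in 2.99% (2.57 to 3.46), 2.51% (2.10 to 2.98) and 27.7% (26.4 to 29.0), against 8.15%, 10.3% and 79.2% without thinning. In neutrophil-like cells without thinning, *Nlrc5* was seen in 1 of 32 cells of Ctrl (interval 0.0791 to 16.2), 0 of 24 of LP1 and 1 of 28 of LP4 (0.0904 to 18.3). The LP4 share of all cells was above that of neutrophil-like cells, while in Ctrl and LP1 the neutrophil-like cells were too few to tell the shares apart. Neutrophil-like cells also held class I UMIs (means of 2.90, 3.45 and 4.04 of 2000), so they need not lack *Nlrc5*. Their median depth was 2940, 5877 and 9262 UMIs, against 5133, 9343 and 11784 in all kept cells.

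**Figure D3:**
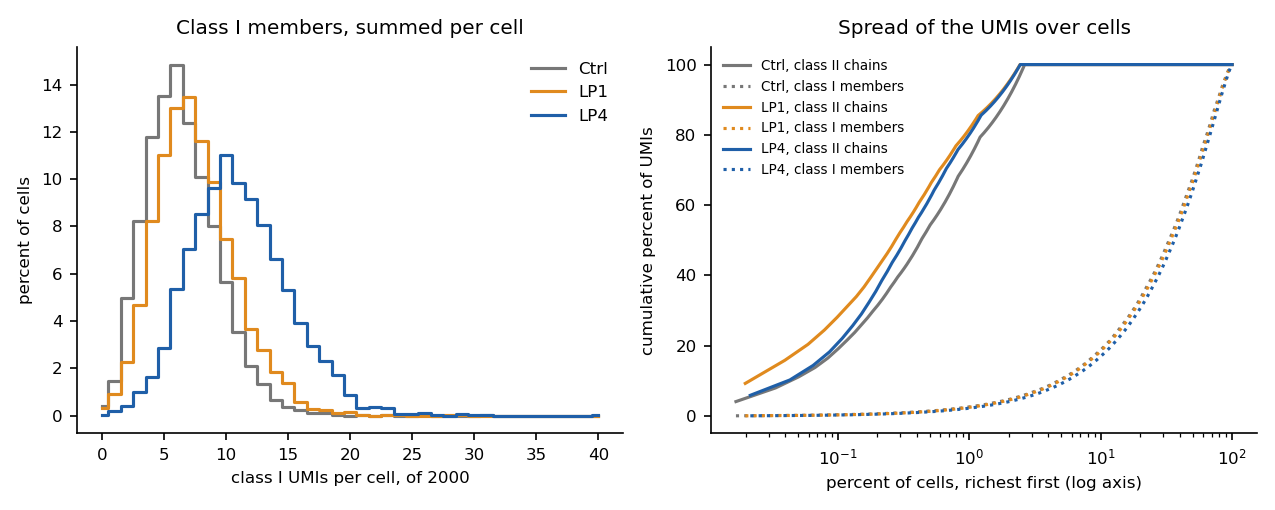
Left, percent of cells by their number of class I UMIs of 2000, for Ctrl, LP1 and LP4; right, cumulative percent of UMIs held by cells ranked from the richest (log axis), for the 3 class II chains (solid) and the class I genes (dotted). The medians are 6, 7 and 11 class I UMIs, and 1% of cells holds 73.5% to 81.9% of the class II chain UMIs.

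Cells were clustered without the 32 genes, the other genes of both paths and all other *H2* genes, so that each path could be described in cells not grouped by it. Of the clusters, 6 held 50 or more cells of each library, namely A to E, macrophage-like and F, cycling-like by their markers, with DNA replication genes among the leading genes of E; no cluster was dendritic cell-like, and 84 cells were neutrophil-like. In all 6, LP4 had the higher class I sum than Ctrl, with log2 ratios from 0.69 in E to 1.04 in C and every interval above 0. *B2m* ranged from 2.10 to 2.22 over the 6 clusters, *H2-D1* from 1.40 to 1.51 and *Nlrc5* from 3.14 to 3.71. Others spread more widely, *H2-T24* from 0.34 in C (-0.26 to 0.90) to 1.70 in F (1.24 to 2.18) and *Psme2* from 0.55 in F (0.36 to 0.75) to 1.36 in C (1.12 to 1.60). *H2-D1* was also past 2-fold in LP1 in all 6, from 1.06 to 1.17. *Psme1* was below Ctrl in all 6, from -0.73 to -0.15, but the interval of C included 0 (-0.37 to 0.07).

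*Ifi30*, a large part of the class II sum, had LP4 to Ctrl log2 ratios from -0.39 to -0.08 over the 6 clusters. The class II sum differed among clusters. It was below Ctrl in LP4 in A, B, E and F, lowest at -0.33 in A, and above it in C (1.12, interval 1.03 to 1.21) and D. The 3 chains summed to 84.0 CPM in C in Ctrl, 166 CPM in LP1 and 471 CPM in LP4, while E had 19.9, 2.82 and 2.83 CPM, or 6.97 CPM in Ctrl without the 1 rich cell there. C held 1594, 1127 and 115 cells in the 3 libraries, and 20, 23 and 6 of them were rich in class II chains. The LP4 value of C thus rests on few cells. C was 26.3%, 22.3% and 2.46% of kept cells in Ctrl, LP1 and LP4, while cluster G was 0.478%, 0.296% and 13.9%. The cells of C may therefore differ in kind between the libraries, which was not tested. The ratios in C are not shown to be a change within 1 kind of cell. Without the rich cells, C had 30.6, 38.2 and 161 CPM of chains (LP4 to Ctrl log2 ratio 2.39, interval 2.06 to 2.72), and D had 17.2, 32.1 and 41.7 CPM (1.28, interval 0.92 to 1.65). With the rich cells counted, *H2-Aa* was among the 10 leading genes of C, although *H2-Aa* was not used to form the clusters. In LP4, 56% of the rich cells were in cluster G, which had 29, 15 and 648 cells and was not compared. At a Leiden resolution of 0.3 the highest class II ratio of a cluster was -0.12, and at 0.8 it was 0.45. At 0.3 it was below Ctrl in all 3 clusters compared, each with its interval below 0. Both the size and the direction of the class II ratio in a cluster thus depend on how cells are split.

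**Figure D4:**
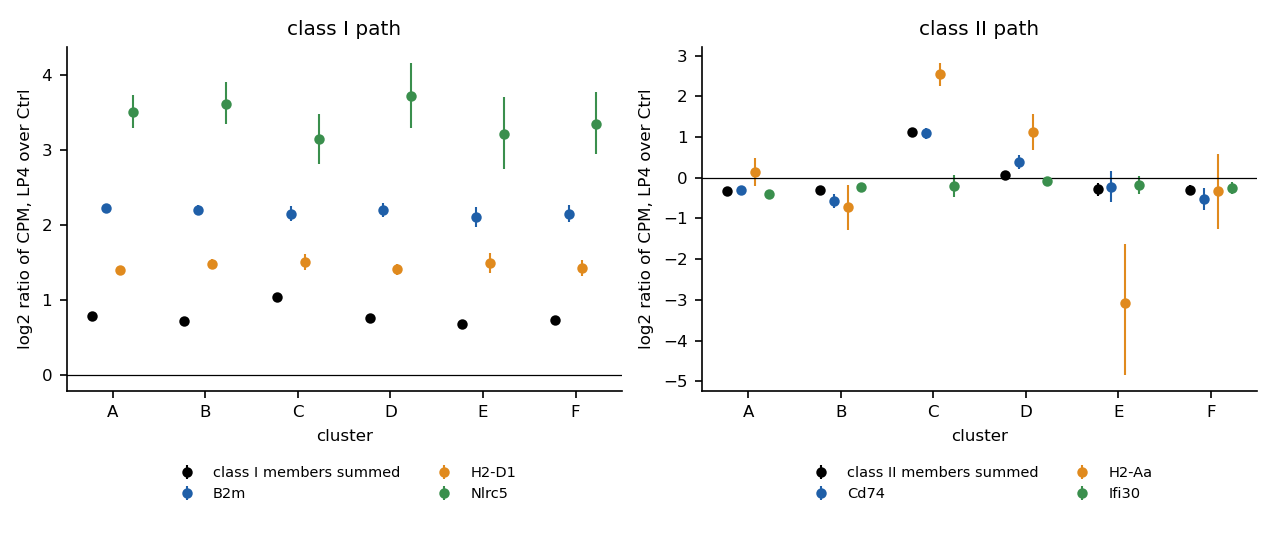
Log2 ratio of CPM, LP4 over Ctrl, in the 6 clusters A to F for class I genes (left) and class II genes (right), with bars for exact 95% counting intervals. The class I sum, *B2m*, *H2-D1* and *Nlrc5* stay above 0 in each cluster, and *H2-Aa* lies between -3.08 in E and 2.55 in C.

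Other genes of both paths were listed beside the 32. Of 10 class II path genes outside the 32, 4 passed the minimum. In LP4, 3 of the 4 were at least 2-fold higher than in Ctrl and 0 lower, against 9.58% and 10.2% of all genes tested. Those measured summed to 6577 CPM in Ctrl, 8169 CPM in LP1 and 13128 CPM in LP4 (log2 ratio 1.00, interval 0.99 to 1.00). Most of this sum was *Ctsl*, whose values are given below. *March1*, the ubiquitin ligase that removes class II from the cell surface, stood at 20.1 CPM in Ctrl, 16.4 CPM in LP1 and 269.8 CPM in LP4 (log2 ratio 3.74, interval 3.64 to 3.85), the largest ratio of the list. The other 2, named after their values were seen, were the lysosomal proteases *Lgmn* (184, 424 and 793 CPM, 2.10) and *Ctsl* (4454, 5898 and 9483 CPM, 1.09). The smallest was that of *Ctss*, the cathepsin that degrades the invariant chain, at 1915, 1828 and 2579 CPM (0.43). Of the 5 other enzymes of the class I path, 1 was at least 2-fold higher, *Lnpep*, an endosomal aminopeptidase, at 56.2, 59.3 and 140.3 CPM (1.32), and the lowest was *Blmh* (-0.35). Of 10 other class I and class I-like genes, 3 passed the minimum and 1 was past 2-fold, *H2-M2* (3.28, 5.51 and 10.2 CPM, 1.64), with *H2-Q10* the lowest (-0.66). Both of these class I counts stand beside 9.58% of all genes tested.

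Of the 17 constitutive proteasome genes, 0 were past 2-fold in either direction, against 9.58% and 10.2% of all genes, and their median was 0.33. *Psma2* was the highest (92.9, 143 and 164 CPM, 0.82) and *Pomp*, a proteasome assembly chaperone, the lowest (264, 275 and 209.7 CPM, -0.33). Of 12 transcription factors of MHC promoters, 10 passed the minimum, 2 were at least 2-fold higher and 0 lower, with a median of 0.02. *Irf8*, an interferon regulatory factor of myeloid cells, was the lowest (145, 146 and 105 CPM, -0.47).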

How the data were processed

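Single cells of Ctrl, LP1 and LP4 BMDMs were sequenced from 1 pooled library each. The authors aligned the reads with Cell Ranger (version 7.1.0 per the file headers) to mm10 and deposited raw UMI counts for each gene in each barcode called as a cell. A barcode was kept if it had over 500 UMIs and over 500 genes, and if mitochondrial UMIs were under 5%. Counts were summed per library and scaled to CPM, with exact Poisson, exact conditional binomial (log2 ratios) and exact binomial (shares) 95% intervals. Ratios at least 2-fold were counted among genes with a mean of at least 5 CPM.

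Clusters used 2000 variable genes, chosen among genes with at least 200 UMIs and CPM that differed by less than 1.5-fold between libraries and centred within library, 30 principal components, 20 neighbours and Leiden clustering at 0.5. Clusters were named after a cell type with 3 or more markers among their 10 leading genes. Otherwise they were called macrophage-like if 3 or more macrophage markers were seen in at least 50% of their cells. Scrublet marked only 2 cells (0.0127%) and so did not work; no doublets were removed. The thinning to 2000 UMIs used seed 20.

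The genes, lists and motifs were chosen with earlier results of these data known. Every gene of the 32 is named, and of each other list the genes with the highest and lowest LP4 to Ctrl ratio, except 1 gene that is not reported here. Gene positions are from GENCODE vM21. The alternatives are given in the closing section. Clustering ran in scanpy 1.11.5 with leidenalg 0.10.2, intervals in scipy 1.17.1 under Python 3.11.15, and TMM factors alone in edgeR 4.0.16 under R 4.3.3. The intervals were tested on simulated data.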

Additional observations from a re-analysis of the deposited data

Results flagged for a closer look

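For 5 genes and 2 sums, clusters lay on opposite sides of 0 in the LP4 to Ctrl log2 ratio, each time highest in cluster C. *H2-Aa* was at 2.55 in C (interval 2.26 to 2.83) and -3.08 in E (-4.85 to -1.63), *H2-Ab1* at 1.96 in C and -1.74 in E, and *H2-Eb1* at 3.12 in C and -4.67 in E. *Cd74* was at 1.09 in C and -0.57 in B, and *Calr* at 0.46 in C and -0.14 in A. The 8 class II genes summed gave 1.12 in C and -0.33 in A, and the 3 chains summed gave 2.49 in C and -2.81 in E. With 1 library a group, these differences were not tested. E held 43 chain UMIs in Ctrl, 15 without the 1 cell rich in them, and 13 in LP4. Without that cell the chain ratio of E was -1.30 (-2.49 to -0.13). C held 115 cells in LP4, or 2.46% of that library against 26.3% of Ctrl. The cells of C may therefore differ in kind between these libraries, which was not tested.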

How the results depend on the processing

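No paired analysis was possible because each group is 1 library and the labels carry no replicate numbers; for the same reason no library could be left out. Over 11 settings, 0 of the genes at least 2-fold from Ctrl changed sign or went under 2-fold, and class II had 0 past 2-fold in every setting. The class I median of LP4 over Ctrl was 1.11 with TMM and 1.15 with median-of-ratios scaling (0.94 as reported), and that of LP4 over LP1 was 0.69 and 0.72 (0.59). The class II median of LP4 over Ctrl was 0.065 with TMM, 0.10 with median-of-ratios, -0.17 with all deposited barcodes, -0.16 with a mitochondrial limit of 10% and -0.20 without cells rich in class II chains (-0.10), and the last gave 0.17 for LP4 over LP1 (-0.06). Leaving out those cells, and limits of 3 and 10 UMIs for them, were chosen after seeing the data. They gave 0.824%, 0.792% and 0.822% of cells at 3 and 0.118%, 0.218% and 0.259% at 10. Over clusters at a resolution of 0.3, the class I sum ranged from 0.73 to 0.83 (0.69 to 1.04), and the highest class II sum was -0.12 (1.12). At 0.8 the class II sum ranged from -0.50 to 0.45. Shares of cells with a UMI, thinned to 1000 UMIs and unthinned, were 23.6% and 72.6% for *B2m* in Ctrl and 66.2% and 99.6% in LP4, 1.64% and 8.15% for *Nlrc5* in Ctrl and 15.8% and 79.2% in LP4, 5.75% and 13.9% for *Cd74* in Ctrl and 5.05% and 19.5% in LP4, and 1.72% and 3.87% for any class II chain in Ctrl and 1.81% and 5.93% in LP4. In the 250 bases before the start alone, the ISRE core was in 3 gene promoters (5). No dendritic cell-like cluster formed, so only neutrophil-like and other clusters could be left out. For shifts other than those of thinning, resolution and promoter length, the cause was not tested.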

Other observations

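*Cd74* UMIs were many more in cells with a UMI of *H2-Aa*, while the other class I genes differed far less between cells with and without a UMI of *Nlrc5*. In cells thinned to 2000 UMIs, those with a UMI of *H2-Aa* held a mean *Cd74* count of 7.23, 7.26 and 7.80 UMIs, in the order Ctrl, LP1 and LP4, against 0.151, 0.103 and 0.116 in the others. LP4 cells with a UMI of *Nlrc5* (1279) held a mean of 10.9 UMIs of the other class I genes, and those without one (3346) held 10.7; the means were 7.21 and 6.37 in Ctrl and 8.39 and 7.51 in LP1. Cells of a library share its depth and free RNA, and at 2000 UMIs a cell with no *Nlrc5* UMI may still express it, so these means are descriptions. Cluster G, with 648 cells in LP4 and 29 and 15 in Ctrl and LP1, had 164.8 CPM of class II chains in LP4.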
